A study of Arabidopsis thaliana with 16 samples.

Results

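Root messenger RNA was sequenced from 6 d old Arabidopsis thaliana seedlings, and the 9 type-A response regulator genes ARR3, ARR4, ARR5, ARR6, ARR7, ARR8, ARR9, ARR15 and ARR16 are described here out of 33518 loci counted. They were picked by name, and all 9 passed the filter on low counts that left 22304 loci for testing. The series was made to study root hair growth under ethylene and the joint action of EIN3/EIL1 with RHD6/RSL1. Its 8 groups were the quadruple mutant ein3eil1rhd6rsl1, the double mutants rhd6rsl1 and ein3eil1, and the wild type Col-0, each with 10 ppm ethylene for 4 h and each untreated. The labels name no mutant alleles. Each group had 2 biological replicates, which gave 16 libraries of 33.0 to 45.0 M counted reads.

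Cytokinin is sensed by histidine kinase receptors, whose phosphate passes through phosphotransfer proteins to the response regulators of the nucleus. Type-B regulators are transcription factors that switch on cytokinin targets, among them the type-A genes. Type-A regulators carry a receiver domain without a DNA-binding domain and dampen cytokinin signalling, so their transcripts are widely used as a readout of the pathway. In roots, cytokinin limits meristem size, and ethylene acts on growth through the transcription factors EIN3 and EIL1. RHD6 and its relative RSL1, both bHLH proteins, set off the outgrowth of root hairs.

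The 250 bases before the annotated transcript start are shown for the 4 members with the largest ethylene responses. They come from the RefSeq TAIR10.1 genome at RefSeq's own annotation. The build of the deposited files is named TAIR10, and no coordinate of those files was used. Capitals mark AGATT, the core of type-B regulator binding, and ATGTA, the core of the EIN3 binding sequence, each on either strand (AATCT and TACAT in reverse).
ARR3: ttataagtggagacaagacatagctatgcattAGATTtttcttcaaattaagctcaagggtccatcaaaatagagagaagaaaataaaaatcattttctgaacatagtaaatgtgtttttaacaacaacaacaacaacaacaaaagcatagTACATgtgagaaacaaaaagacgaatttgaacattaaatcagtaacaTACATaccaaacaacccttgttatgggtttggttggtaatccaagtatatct
ARR7: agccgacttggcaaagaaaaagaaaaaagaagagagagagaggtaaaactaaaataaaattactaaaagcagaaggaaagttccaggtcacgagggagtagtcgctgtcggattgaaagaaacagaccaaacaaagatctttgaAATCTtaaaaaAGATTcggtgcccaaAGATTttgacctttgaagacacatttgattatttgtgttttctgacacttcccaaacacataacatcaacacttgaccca
ARR15: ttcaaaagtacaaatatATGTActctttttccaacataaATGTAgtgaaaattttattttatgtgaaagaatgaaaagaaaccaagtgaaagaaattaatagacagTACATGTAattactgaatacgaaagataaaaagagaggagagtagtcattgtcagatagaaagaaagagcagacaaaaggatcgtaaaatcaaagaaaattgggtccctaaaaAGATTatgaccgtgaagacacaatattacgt
ARR16: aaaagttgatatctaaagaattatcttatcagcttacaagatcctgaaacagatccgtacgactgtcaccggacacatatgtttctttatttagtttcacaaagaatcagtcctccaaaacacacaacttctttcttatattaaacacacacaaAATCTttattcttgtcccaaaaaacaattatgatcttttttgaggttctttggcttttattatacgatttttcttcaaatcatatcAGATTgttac
The windows lie at chr1:22067234-22067483 (minus strand) for ARR3, chr1:6579315-6579564 (minus strand) for ARR7, chr1:28133026-28133275 (minus strand) for ARR15 and chr2:16969423-16969672 (plus strand) for ARR16. AGATT was found in 7 of the 9 members, against 63.7% of 27443 genes with a window of the same length. ATGTA was found in 3 of the 9, against 52% of those genes. ARR15 held 4 matches of ATGTA, of which 2 on opposite strands share bases, ARR3 held 2 and ARR8 held 1. ARR6, ARR7, ARR9 and ARR16 held AGATT without ATGTA, and ARR4 and ARR5 held neither. No match of one motif overlapped the other. These are letter matches in a window, not binding sites.

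Levels are given as CPM, counts per one-millionth share of the TMM-scaled library. Changes are log2 fold changes ± standard error from 1 edgeR quasi-likelihood fit of all 16 libraries, and a gene is called at a Benjamini-Hochberg adjusted p below 0.05 over all loci tested. Each file code holds an S or a Z, and the sources do not explain these letters. Set S held ethylene-treated Col-0 and ein3eil1 and untreated rhd6rsl1 and ein3eil1rhd6rsl1, and set Z held the other 4 groups. Within 1 genotype, ethylene and file set therefore cannot be told apart. An additive set effect cancels in the average over Col-0 and rhd6rsl1 (EIN3/EIL1 present), in the average over ein3eil1 and ein3eil1rhd6rsl1 (EIN3/EIL1 lost), in the difference of both and in the average effect of RHD6/RSL1 loss.

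EIN3 stood at 28.7 to 41.6 CPM and EIL1 at no more than 29.7 CPM in the 8 libraries of their mutants, against 148 to 185 CPM and 61.3 to 75.6 CPM in the other 8. RHD6 stood at 7.92 and 7.93 CPM in untreated rhd6rsl1, against 24.2 and 23.5 CPM in untreated Col-0, but at 14.8 and 15.6 CPM against 14.2 and 15.7 CPM with ethylene, so that its level did not separate these groups under ethylene. RSL1 did not separate them either, at 1.75 and 1.24 CPM in ethylene-treated rhd6rsl1 and 1.09 and 1.75 CPM in ethylene-treated Col-0. The root hair gene EXPA18 did, at 8.04 and 7.46 CPM in ethylene-treated rhd6rsl1 and 150 and 135 CPM in ethylene-treated Col-0. The feedback gene EBF2 rose with ethylene by 1.44 ± 0.068 with EIN3/EIL1 present (adjusted p = 2e-11) and fell by 0.66 ± 0.075 with EIN3/EIL1 lost (adjusted p = 0.00011). ETR2 and RTE1, an ethylene receptor gene and a receptor regulator, rose by 2.20 ± 0.085 and 2.73 ± 0.097 with EIN3/EIL1 present. Neither was called with EIN3/EIL1 lost (adjusted p = 0.4 and 0.5). Summed transcripts of 8 photosynthesis genes reached 1120 CPM in ein3eil1rhd6rsl1 ethylene replicate 1 and 689 CPM in Col-0 ethylene replicate 1, against 107 to 226 CPM in the other 14 libraries. All counts of members were repeated without these 2 libraries. Shares of all loci called are given for the fit of all 16 libraries alone, so the repeated counts have no such share beside them.

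With EIN3/EIL1 present, ethylene raised all 9 members, by 0.32 to 3.36 on the log2 scale with a median of 0.70, against a median of 0.003 over all loci tested. In that contrast 41.3% of loci were called in either direction and 18.9% were called higher. With EIN3/EIL1 lost, ARR8 alone was called, as higher, and the median of the 9 was 0.06, against 0.007 over all loci tested. There 7.89% of loci were called in either direction and 3.32% were called higher. The difference of both averages was called for 7 members, all with a smaller response without EIN3/EIL1, and its median was -0.84, against 0 over all loci tested. There 26.5% of loci were called in either direction and 11.2% in that one. ARR6 and ARR8 were not called in it. In bulk roots, a shift in the number of cells of a type and a shift in RNA per cell cannot be told apart. The 9 rises and the 7 differences were called in each of the 24 alternative fits, including the one without the 2 libraries high in photosynthesis transcripts, where the medians of the 9 were 0.80 with EIN3/EIL1 present, 0.09 with EIN3/EIL1 lost and -0.92 for the difference. For the difference, the alternative that fits only the groups compared is the main fit itself, since all 8 groups enter it.

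**Figure D1:**
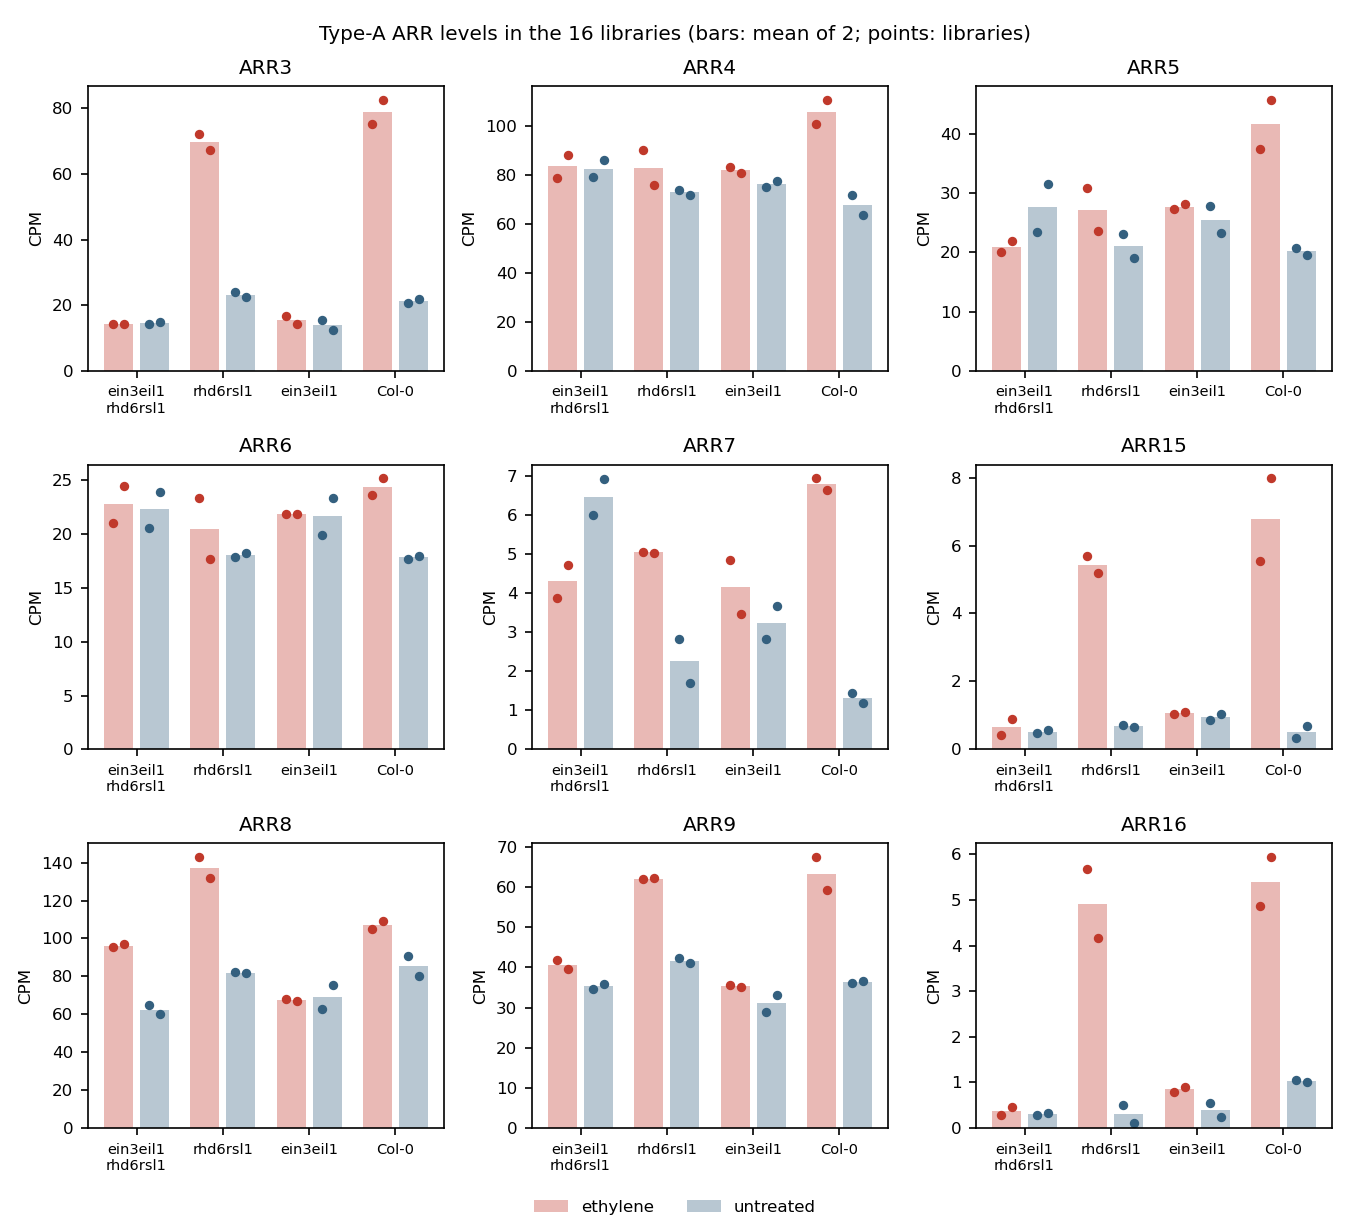
Levels of the 9 type-A ARR genes in CPM (y axis, from 0) in each genotype (x axis) with ethylene (red) and untreated (blue); bars are means of 2 libraries and points are the libraries. ARR3, ARR15 and ARR16 stood high in the 4 ethylene libraries of rhd6rsl1 and Col-0, while ARR6 stood between 17.7 and 25.2 CPM throughout.

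ARR3 (AT1G59940) combined a high level with a large response. With ethylene it stood at 72.3 and 67.3 CPM in rhd6rsl1 and 75.2 and 82.7 CPM in Col-0, against 23.9 and 22.6 CPM in untreated rhd6rsl1 and 20.6 and 21.8 CPM in untreated Col-0. Without EIN3/EIL1 it stood at 14.1 and 14.3 CPM in ein3eil1rhd6rsl1 and 16.7 and 14.1 CPM in ein3eil1 with ethylene, against 14.2 and 14.8 CPM and 15.5 and 12.4 CPM in the same genotypes untreated. The 4 ethylene libraries with EIN3/EIL1 thus lay above all other 12, and the 4 untreated ones of those genotypes lay above all 8 libraries without EIN3/EIL1. Ethylene raised ARR3 by 1.74 ± 0.075 with EIN3/EIL1 present, or 3.34-fold (adjusted p = 6e-12). With EIN3/EIL1 lost the change was 0.06 ± 0.079 (adjusted p = 0.68), and the difference of both was -1.68 ± 0.11 (adjusted p = 3.7e-09).

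ARR15 (AT1G74890) was scarce and had the largest rise of the 9. With ethylene it stood at 5.68 and 5.18 CPM in rhd6rsl1 and 5.55 and 7.98 CPM in Col-0, against 0.709 and 0.648 CPM in untreated rhd6rsl1 and 0.349 and 0.675 CPM in untreated Col-0. The lowest of these libraries, untreated Col-0 replicate 1, held 14 reads of ARR15. In the 8 libraries without EIN3/EIL1 it stood at 0.435 to 1.10 CPM with ethylene and 0.473 to 1.04 CPM untreated, and those ranges overlapped. The rise was 3.36 ± 0.22, or 10.3-fold, with EIN3/EIL1 present (adjusted p = 1.7e-09) and 0.25 ± 0.25 with EIN3/EIL1 lost (adjusted p = 0.58). Their difference was -3.11 ± 0.34 (adjusted p = 2.4e-06).

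ARR16 (AT2G40670) had a response of like size at a level as low. With ethylene it stood at 5.68 and 4.17 CPM in rhd6rsl1 and 4.87 and 5.94 CPM in Col-0, against 0.513 and 0.104 CPM in untreated rhd6rsl1 and 1.05 and 1.01 CPM in untreated Col-0. Untreated rhd6rsl1 replicate 2 held 4 reads of ARR16. The libraries without EIN3/EIL1 held 0.290 to 0.900 CPM with ethylene and 0.242 to 0.547 CPM untreated. All 4 ethylene libraries with EIN3/EIL1 lay above the other 12. The rise was 3.18 ± 0.28 with EIN3/EIL1 present (adjusted p = 6.9e-08), against 0.73 ± 0.37 with EIN3/EIL1 lost (adjusted p = 0.22), with a difference of -2.44 ± 0.47 (adjusted p = 0.00084). Without untreated rhd6rsl1 replicate 1, where the library of 4 reads stood alone for its group, the rise of ARR16 was 3.99 and the difference -3.26. Over the 24 alternative fits the rise was 2.82 to 3.99 and the difference -3.26 to -2.10.

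ARR7 (AT1G19050), the closest relative of ARR15 among the 9, also rose with ethylene, but it was high in other groups too. With ethylene it stood at 5.07 and 5.04 CPM in rhd6rsl1 and 6.95 and 6.66 CPM in Col-0, against 2.84 and 1.71 CPM in untreated rhd6rsl1 and 1.45 and 1.19 CPM in untreated Col-0. Without EIN3/EIL1 it stood at 3.88 and 4.73 CPM in ein3eil1rhd6rsl1 and 4.86 and 3.46 CPM in ein3eil1 with ethylene, against 6.01 and 6.93 CPM and 2.83 and 3.68 CPM untreated. The untreated quadruple mutant therefore lay within the range of ethylene-treated Col-0 and rhd6rsl1. The rise was 1.75 ± 0.17 with EIN3/EIL1 present (adjusted p = 1.8e-07), the change was -0.12 ± 0.16 with EIN3/EIL1 lost (adjusted p = 0.68), and the difference was -1.87 ± 0.23 (adjusted p = 8.4e-06).

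ARR5 (AT3G48100) and its close copy ARR6 (AT5G62920) moved less. ARR5 stood at 30.8 and 23.6 CPM in rhd6rsl1 and 37.5 and 45.8 CPM in Col-0 with ethylene, against 23.1 and 19.1 CPM and 20.8 and 19.6 CPM untreated. In ein3eil1 and ein3eil1rhd6rsl1 it had a median of 24.6 CPM and a highest value of 28.1 CPM with ethylene, against 25.7 and 31.6 CPM untreated. The ethylene libraries lay above the untreated ones where EIN3/EIL1 was present and overlapped with them where it was lost. Its rise was 0.70 ± 0.11 with EIN3/EIL1 present (adjusted p = 4.6e-05), its change was -0.14 ± 0.11 with EIN3/EIL1 lost (adjusted p = 0.46), and the difference between EIN3/EIL1 lost and present was -0.84 ± 0.15 (adjusted p = 0.00047). ARR6 stood at 23.4 and 17.7 CPM in rhd6rsl1 and 23.6 and 25.2 CPM in Col-0 with ethylene, against 17.9 and 18.3 CPM and 17.7 and 18.0 CPM untreated, so rhd6rsl1 ethylene replicate 2 did not exceed the untreated libraries. The 4 libraries each of the genotypes without EIN3/EIL1 stood at 21.0 to 24.5 CPM with ethylene and 19.9 to 23.9 CPM untreated. ARR6 rose by 0.32 ± 0.089 (adjusted p = 0.0086), the smallest rise of the 9. Its difference of -0.30 ± 0.13 was not called (adjusted p = 0.095, and 0.012 to 0.2 over the 24 alternative fits, 4 of which called it).

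ARR4 (AT1G10470), which binds and stabilises phytochrome B in light signalling besides its cytokinin role, stood at 76.0 to 111 CPM in the ethylene libraries with EIN3/EIL1, against 63.7 to 73.9 CPM in the untreated ones. Without EIN3/EIL1 it stood at 78.8 to 88.5 CPM with ethylene and 75.2 to 86.1 CPM untreated. The ethylene libraries with EIN3/EIL1 lay above the untreated ones of the same genotypes but overlapped with those without EIN3/EIL1. ARR4 rose by 0.41 ± 0.068 with EIN3/EIL1 present (adjusted p = 9.9e-05), its change was 0.06 ± 0.068 with EIN3/EIL1 lost (adjusted p = 0.63), and the difference was -0.36 ± 0.097 (adjusted p = 0.011).

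ARR8 (AT2G41310) and ARR9 (AT3G57040) form a pair of similar sequence. ARR9 stood at 62.0 and 62.2 CPM in rhd6rsl1 and 67.5 and 59.2 CPM in Col-0 with ethylene, against 42.3 and 41.1 CPM and 36.1 and 36.5 CPM untreated. In the genotypes without EIN3/EIL1 it stood at 35.1 to 41.9 CPM with ethylene and 29.0 to 35.8 CPM untreated. Within each of these genotypes the ethylene libraries lay above the untreated ones. The means were 40.7 against 35.3 CPM in ein3eil1rhd6rsl1 and 35.4 against 31.1 CPM in ein3eil1. The 4 ethylene libraries with EIN3/EIL1 lay above all other 12. The rise of ARR9 was 0.69 ± 0.061 with EIN3/EIL1 present (adjusted p = 7.2e-08), its change was 0.20 ± 0.062 with EIN3/EIL1 lost (adjusted p = 0.061), and the difference was -0.49 ± 0.087 (adjusted p = 0.00037). ARR8 was the member called with EIN3/EIL1 lost. With ethylene it stood at 143 and 132 CPM in rhd6rsl1 and 105 and 109 CPM in Col-0, against 82.2 and 81.6 CPM and 90.9 and 80.3 CPM untreated, without overlap. Where EIN3/EIL1 was lost it stood with ethylene at 95.5 and 97.0 CPM in ein3eil1rhd6rsl1 and 68.3 and 67.0 CPM in ein3eil1, against 64.9 and 60.1 CPM and 62.9 and 75.5 CPM untreated. The quadruple mutant libraries did not overlap, whereas those of ein3eil1 did. Averaged over ein3eil1 and ein3eil1rhd6rsl1, ARR8 rose by 0.29 ± 0.066 (adjusted p = 0.016), and the call was lost without ein3eil1 ethylene replicate 1 (adjusted p = 0.079), ein3eil1 untreated replicate 1 (0.1), ein3eil1rhd6rsl1 ethylene replicate 2 (0.052) or ein3eil1rhd6rsl1 untreated replicate 2 (0.057). With EIN3/EIL1 present ARR8 rose by 0.53 ± 0.066 (adjusted p = 3.8e-06), and the difference of -0.24 ± 0.093 was not called (adjusted p = 0.067, and 0.016 to 0.14 over the 24 alternative fits, 8 of which called it).

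**Figure D2:**
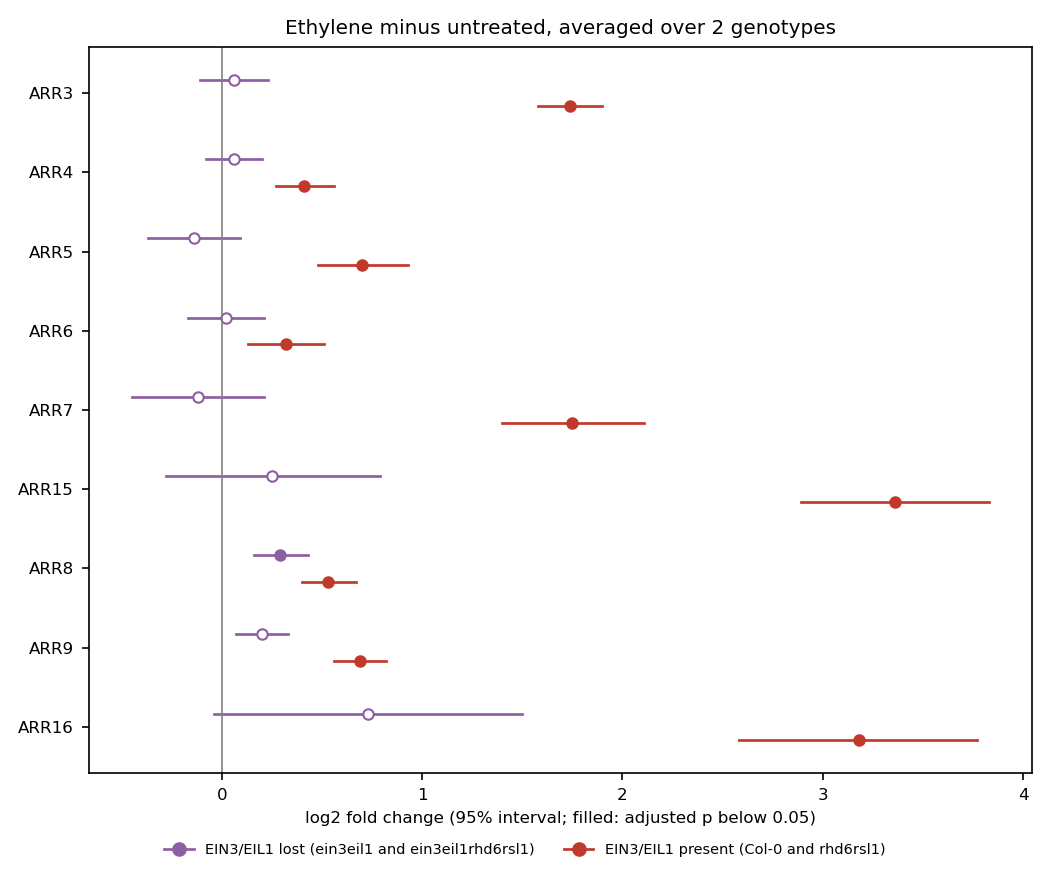
Log2 fold change of ethylene over untreated (x axis) for each member (y axis), with EIN3/EIL1 lost (purple, upper point) and present (red, lower point); lines are 95% intervals and filled points have an adjusted p below 0.05. All 9 red points lie above 0, from 0.32 for ARR6 to 3.36 for ARR15, and ARR8 at 0.29 is the filled purple point.

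Summed over the 9 genes, the family stood at 438 and 393 CPM in rhd6rsl1 and 427 and 453 CPM in Col-0 with ethylene, against 267 and 257 CPM and 261 and 243 CPM untreated. Without EIN3/EIL1 the sum was 252 to 292 CPM with ethylene and 234 to 260 CPM untreated. ARR3 made up 16.5 to 18.2% of the family's scaled reads in the 4 ethylene libraries with EIN3/EIL1, against 7.91 to 8.99% in the untreated libraries of those genotypes and 4.92 to 6.60% in the 8 libraries without EIN3/EIL1. Per kilobase of spliced RefSeq transcript, untreated Col-0 held 12.1 to 38.4 CPM for ARR3, ARR4, ARR5, ARR6, ARR8 and ARR9. ARR7, ARR15 and ARR16 lay below, at no more than 1.54 CPM per kilobase in either library. By the authors' deposited RPKM, which uses another gene length, those 3 genes reached at most 1.09 and the other 6 at least 7.85. These 3 scarce genes and ARR3 had the 4 largest fold changes with ethylene.

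Within single genotypes, where treatment and file set cannot be told apart, all 9 members were called higher in Col-0 (29.6% of loci called in either direction and 13.7% higher) and 6 in rhd6rsl1 (39.5% in either direction and 18% higher). The median of the 9 was 1.04 in Col-0 and 0.75 in rhd6rsl1, against 0.011 and -0.009 over all loci tested. Without the libraries high in photosynthesis transcripts, 9 were called in Col-0 (median 1.20) and 7 in rhd6rsl1 (median 0.79). ARR4, ARR5 and ARR6 were not called in rhd6rsl1, at 0.19 ± 0.097, 0.37 ± 0.15 and 0.18 ± 0.13 (adjusted p = 0.14, 0.069 and 0.27). ARR5 was called there in 13 of the 24 alternative fits (adjusted p = 0.0018 to 0.44), and ARR4 and ARR6 in 1 each. ARR8 in Col-0, at 0.32 ± 0.093 (adjusted p = 0.014), lost its call without ethylene replicate 2 (adjusted p = 0.055) or untreated replicate 2 (0.16). ARR6 in Col-0, at 0.45 ± 0.13 (adjusted p = 0.012), lost it without ethylene replicate 2 (adjusted p = 0.059), untreated replicate 1 (0.061) or untreated replicate 2 (0.058). In ein3eil1, edgeR called 0 of the 9 (0.623% of loci called in either direction, median of the 9 0.15 against 0.005 over all loci tested), with 1 (ARR16, at 1.15 ± 0.47 and an adjusted p of 0.28) at an unadjusted p below 0.05. DESeq2 called 0 of the 6 members to which it gave an adjusted p and gave none to ARR7, ARR15 and ARR16. In ein3eil1rhd6rsl1, ARR8 was called at 0.62 ± 0.093 (adjusted p = 0.00025), with 23.9% of loci called in either direction and 11.5% higher. The median of the 9 was 0.03 there, against 0.015 over all loci tested, and without the libraries high in photosynthesis transcripts 1 was called (median 0.13). ARR7 and ARR5 had negative values there, -0.59 ± 0.22 and -0.40 ± 0.15, and were not called (adjusted p = 0.059 and 0.071). The responses of Col-0 and rhd6rsl1 were not set against each other, because a set effect would be doubled in that difference.

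The ethylene responses were also compared within each RHD6/RSL1 state, where an additive set effect cancels. Between ein3eil1 and Col-0 the response was smaller in 6 of the 9 (12.2% of loci called in either direction and 4.59% lower, median -0.93 against -0.003 over all loci tested), namely ARR3, ARR4, ARR5, ARR7, ARR9 and ARR15. ARR16 was not called there, at -1.23 ± 0.61 (adjusted p = 0.24). Between ein3eil1rhd6rsl1 and rhd6rsl1 it was smaller in 6 (17.8% of loci called in either direction and 6.89% lower, median -0.76 against 0.013 over all loci tested), namely ARR3, ARR5, ARR7, ARR9, ARR15 and ARR16. ARR16 differed by -3.65 ± 0.72 with RHD6/RSL1 lost (adjusted p = 0.0015), and by -5.27 without untreated rhd6rsl1 replicate 1 or -2.96 without replicate 2. ARR4 was not called, at -0.17 ± 0.14 (adjusted p = 0.43). ARR3, ARR7 and ARR15 were called in both comparisons and in all 24 alternative fits of each. Between ein3eil1rhd6rsl1 and rhd6rsl1, ARR15 differed by -2.65 ± 0.5 (adjusted p = 0.001). It differed by -3.29 without ein3eil1rhd6rsl1 ethylene replicate 2 and by -2.27 without the libraries high in photosynthesis transcripts. Without the libraries high in photosynthesis transcripts 6 members were called in each.

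Some of these calls rested on single libraries. Between ein3eil1 and Col-0, the response of ARR4 (-0.54 ± 0.14, adjusted p = 0.014) was not called without ein3eil1 ethylene replicate 2 (adjusted p = 0.055), ein3eil1 untreated replicate 2 (0.055) or Col-0 untreated replicate 2 (0.083). That of ARR5 (-0.93 ± 0.22, adjusted p = 0.0078) was not called without ein3eil1 untreated replicate 1 (adjusted p = 0.055). Between ein3eil1rhd6rsl1 and rhd6rsl1, the call of ARR9 (-0.37 ± 0.12, adjusted p = 0.047) held in 12 of the 24 alternative fits, with an adjusted p of up to 0.11, and was lost with replicate number as a block (adjusted p = 0.06). Leaving out any 1 of 9 libraries ended it, namely both replicates of ethylene-treated rhd6rsl1, ein3eil1 and untreated rhd6rsl1, and replicate 2 of ein3eil1rhd6rsl1 with ethylene, ein3eil1rhd6rsl1 untreated and Col-0 untreated. The call of ARR5 (-0.76 ± 0.22, adjusted p = 0.021) was lost without rhd6rsl1 untreated replicate 2 (adjusted p = 0.094), rhd6rsl1 ethylene replicate 1 (0.095), ein3eil1rhd6rsl1 untreated replicate 2 (0.11) or ein3eil1rhd6rsl1 ethylene replicate 1 (0.05).

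The next contrasts ask how loss of EIN3/EIL1 shifted the members at a fixed treatment, and each lies within 1 file set. Under ethylene 8 of the 9 were lower in ein3eil1 than in Col-0 (25.3% of loci called in either direction and 11.2% lower, median -0.71 against -0.003 over all loci tested), all but ARR6, at -0.16 ± 0.12 (adjusted p = 0.41). Without Col-0 ethylene replicate 2 the count was 5, as ARR4, ARR5 and ARR7 lost their calls (adjusted p = 0.077, 0.09 and 0.056). ARR4 also lost its call without ein3eil1 ethylene replicate 1 (adjusted p = 0.053) or 2 (0.084), and ARR5 without replicate 1 (0.069). ARR7 lost its call without ein3eil1 ethylene replicate 2 (adjusted p = 0.25) or Col-0 ethylene replicate 1 (0.085), and without both libraries high in photosynthesis transcripts (0.072), which left 7 calls. In ein3eil1rhd6rsl1, 5 were lower than in rhd6rsl1 (31% of loci called in either direction and 13.1% lower, median -0.51 against 0.002 over all loci tested), namely ARR3, ARR8, ARR9, ARR15 and ARR16. The count was 5 as well without the libraries high in photosynthesis transcripts. ARR3 differed by -2.36 ± 0.11 between ein3eil1 and Col-0 and by -2.29 ± 0.11 between ein3eil1rhd6rsl1 and rhd6rsl1 (adjusted p = 3.7e-11 and 4.2e-11). ARR8 differed by -0.66 ± 0.093 and -0.51 ± 0.093 in the same contrasts (adjusted p = 3.4e-05 and 0.00033).

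Without added ethylene, ARR3 and ARR7 went opposite ways when EIN3/EIL1 was lost. ARR7 was higher by 1.31 ± 0.25 in ein3eil1 than in Col-0 (adjusted p = 0.0037) and by 1.50 ± 0.23 in ein3eil1rhd6rsl1 than in rhd6rsl1 (adjusted p = 0.00053). ARR3 differed by -0.61 ± 0.11 and -0.68 ± 0.11 (adjusted p = 0.0023 and 0.00093). The libraries did not overlap in any of these 4 comparisons. Between ein3eil1 and Col-0 these were the 2 members called, where 5.63% of loci were called in either direction, 2.54% higher and 3.09% lower. Between ein3eil1rhd6rsl1 and rhd6rsl1 ARR8 was called as well, at -0.39 ± 0.093 (adjusted p = 0.022), where 4.33% of loci were called in either direction, 1.95% higher and 2.37% lower. The medians of the 9 were 0.17 and -0.03, against -0.006 and 0.01 over all loci tested. Between ein3eil1 and Col-0 ARR7 lost its call without Col-0 untreated replicate 2 (adjusted p = 0.058) or ein3eil1 untreated replicate 2 (0.076), and ARR3 without ein3eil1 untreated replicate 2 (0.098). Between ein3eil1rhd6rsl1 and rhd6rsl1 neither lost its call in any of the 24 alternative fits. ARR8 lost its call there without rhd6rsl1 untreated replicate 1 (adjusted p = 0.13) or 2 (0.12), without ein3eil1rhd6rsl1 untreated replicate 2 (0.17), and in a fit that held only those 2 groups (0.12).

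**Figure D3:**
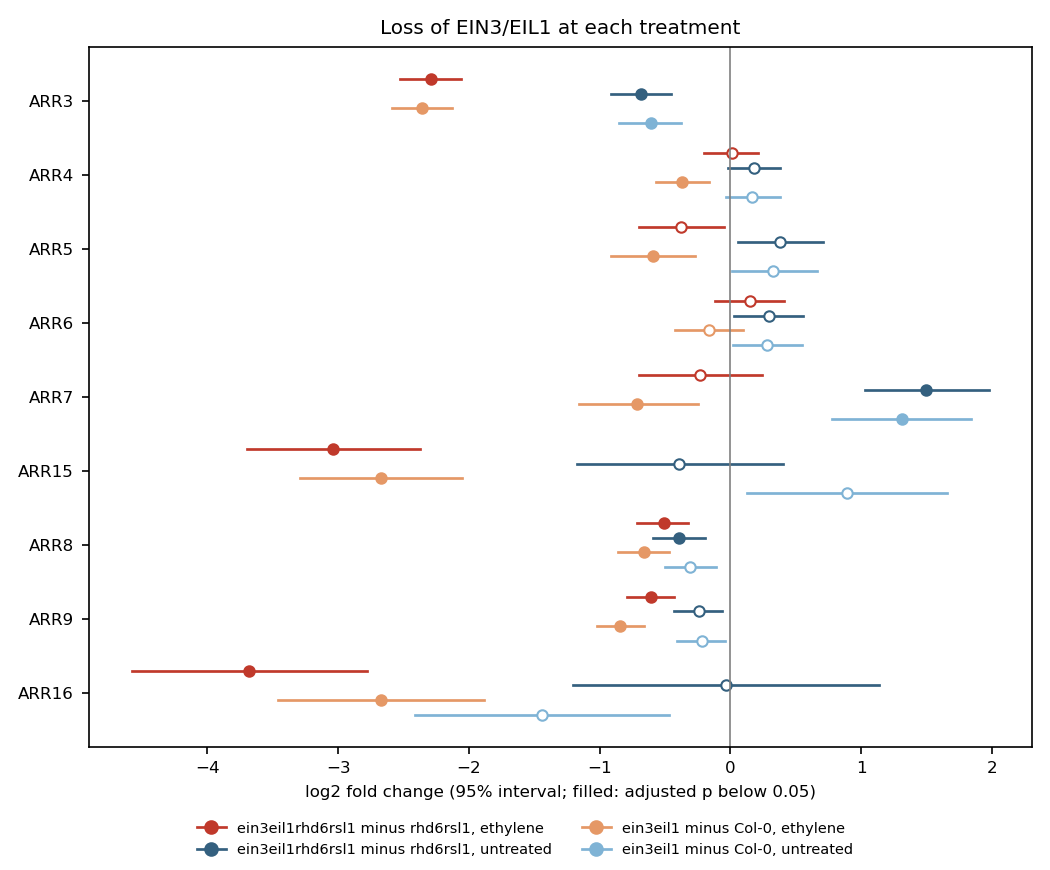
Log2 fold change when EIN3/EIL1 is lost (x axis) for each member (y axis), for ein3eil1rhd6rsl1 minus rhd6rsl1 and ein3eil1 minus Col-0, with ethylene and untreated; lines are 95% intervals and filled points have an adjusted p below 0.05. Untreated ARR7 lies above 0 at 1.31 and 1.50, while ARR3 lies below 0 in all 4 contrasts.

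Loss of RHD6/RSL1, averaged over both treatments and both EIN3/EIL1 states, gave small shifts. It was called for 5 of the 9, where 35.5% of loci were called in either direction, 18% higher and 17.5% lower. The median of the 9 was -0.03, against 0.002 over all loci tested. ARR7, ARR8 and ARR9 were higher, by 0.35 ± 0.11, 0.16 ± 0.047 and 0.14 ± 0.043 (adjusted p = 0.025, 0.011 and 0.019). ARR16 and ARR5 fell by 0.82 ± 0.23 and 0.21 ± 0.076 (adjusted p = 0.01 and 0.041). For some members the direction changed with treatment, which cannot be told apart from file set in these pairs of groups. Between rhd6rsl1 and Col-0, ARR8 averaged 137 against 107 CPM with ethylene but 81.9 against 85.6 CPM untreated. ARR7 averaged 5.06 against 6.8 CPM and 2.27 against 1.32 CPM, and ARR5 27.2 against 41.6 CPM and 21.1 against 20.2 CPM. ARR8 and ARR5 also switched between ein3eil1rhd6rsl1 and ein3eil1, where ARR7 averaged higher at both treatments. The call of ARR5 held in 12 of the 24 alternative fits (adjusted p up to 0.14) and was lost without any 1 of 11 libraries, and that of ARR8 held in all 24. ARR7 lost its call without rhd6rsl1 untreated replicate 1 (adjusted p = 0.098), ein3eil1 ethylene replicate 2 (0.07), Col-0 untreated replicate 2 (0.07), or replicate 2 of ein3eil1rhd6rsl1 untreated (0.054) or with ethylene (0.055). Without ein3eil1 untreated replicate 1, ARR8 was the 1 call left, as ARR16 (adjusted p = 0.06), ARR9 (0.056), ARR7 (0.068) and ARR5 (0.13) lost theirs. Without the libraries high in photosynthesis transcripts all 5 calls were kept. Root hair markers (EXPA7, EXPA18 and COBL9) summed to 0.318 to 44.1 CPM in the libraries without RHD6/RSL1 and to 182 to 391 CPM in those with it, and their part in these shifts was not tested.

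Sums of markers of other cells were also set against the treatment, without a test. The sum of 7 markers of dividing root tip cells was 102 to 142 CPM with ethylene and 147 to 174 CPM untreated where EIN3/EIL1 was present, against 154 to 188 CPM and 173 to 186 CPM where it was lost. The 4 stele markers were SHR, WOL (the cytokinin receptor gene AHK4), VND7 and APL. Their sum was 161 to 177 CPM with ethylene and 185 to 192 CPM untreated with EIN3/EIL1 present. It was 145 to 173 CPM and 142 to 160 CPM with EIN3/EIL1 lost. The 3 root cap markers summed to 19.0 to 26.4 CPM with ethylene and 23.8 to 32.4 CPM untreated with EIN3/EIL1 present, against 21.3 to 28.5 CPM and 26.8 to 30.0 CPM with EIN3/EIL1 lost. The 3 endodermis markers summed to 240 to 388 CPM and 301 to 320 CPM with EIN3/EIL1 present, against 255 to 460 CPM and 300 to 372 CPM with EIN3/EIL1 lost. The sums of dividing-cell and stele markers were thus lower in every ethylene library than in every untreated one where EIN3/EIL1 was present. Those of root cap and endodermis markers overlapped between treatments there. Every marker had at least 1 read in each group. Their part in the ARR changes was not tested.

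The rest of the cytokinin pathway was read from 61 further genes, of which 50 could be tested. With EIN3/EIL1 present 16 of the 50 rose and 10 fell with ethylene, where 41.3% of all loci were called in either direction and 18.9% higher. Their median was 0.07, against 0.003 over all loci tested. With EIN3/EIL1 lost 1 rose and 2 fell, where 7.89% of all loci were called. In the difference 6 had a more positive and 13 a more negative value without EIN3/EIL1, where 26.5% of all loci were called and 11.2% were more negative. Whether the pathway differs from other loci was not tested. The receptors AHK2, AHK3 and AHK4 were not called with EIN3/EIL1 present, at -0.08 ± 0.083, 0.12 ± 0.096 and -0.09 ± 0.069 (adjusted p = 0.48, 0.35 and 0.34). Of 6 phosphotransfer genes AHP1 rose, by 1.58 ± 0.072 (adjusted p = 1.2e-11), and AHP2 fell, by 0.35 ± 0.09 (adjusted p = 0.0046). AHP1 stood at 246 and 264 CPM in rhd6rsl1 and 256 and 261 CPM in Col-0 with ethylene, against 84.9 and 81.6 CPM and 85.3 and 92.5 CPM untreated. Without EIN3/EIL1 it stood at 11.6 to 23.5 CPM in all 8 libraries, and the difference of its responses was -1.40 ± 0.11 (adjusted p = 2.4e-08).

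Of the 6 type-B genes tested, ARR10 fell by 0.92 ± 0.065 and ARR2 by 0.57 ± 0.07 with EIN3/EIL1 present (adjusted p = 3.5e-09 and 3.9e-06), and 4 were not called. Both differences were called, at 1.12 ± 0.091 for ARR10 and 0.64 ± 0.099 for ARR2 (adjusted p = 5.9e-08 and 0.00011). None of the 6 was called higher. In this contrast 18.9% of all loci were called higher and 41.3% in either direction, which also holds for the next class. Of 6 CRF genes, cytokinin response factors of the AP2 family, CRF2, CRF3 and CRF4 rose, by 0.32 ± 0.069, 0.22 ± 0.084 and 0.46 ± 0.1, and CRF6 fell by 0.35 ± 0.11. The auxin repressor gene SHY2, a cytokinin target, rose by 0.55 ± 0.071 (adjusted p = 7e-06).

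Genes of cytokinin supply were mixed. With EIN3/EIL1 present, where 41.3% of all loci were called, 3 of 15 biosynthesis genes tested rose and 5 fell. LOG8, for an enzyme that activates cytokinin, rose by 1.53 ± 0.074, with a difference of -1.50 ± 0.11 without EIN3/EIL1 (adjusted p = 1.3e-08). IPT3, for an isopentenyltransferase that starts synthesis, rose by 0.61 ± 0.088. LOG7, IPT5 and IPT7 fell by 0.71 ± 0.078, 0.32 ± 0.085 and 1.32 ± 0.11. IPT7 was the 1 pathway gene that rose with EIN3/EIL1 lost, by 0.43 ± 0.1 (adjusted p = 0.019), while IPT9 and UGT85A1 fell by 0.41 ± 0.084 and 0.33 ± 0.094 (adjusted p = 0.01 and 0.043). Of 9 degradation and conjugation genes tested 5 rose and 1 fell with EIN3/EIL1 present. CKX5, for a cytokinin oxidase, rose by 0.77 ± 0.1, UGT85A1, for a glucosyltransferase, rose by 0.42 ± 0.095, and CKX4 fell by 2.19 ± 0.21. PUP14, for a cytokinin importer, rose by 0.63 ± 0.074.

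**Figure D4:**
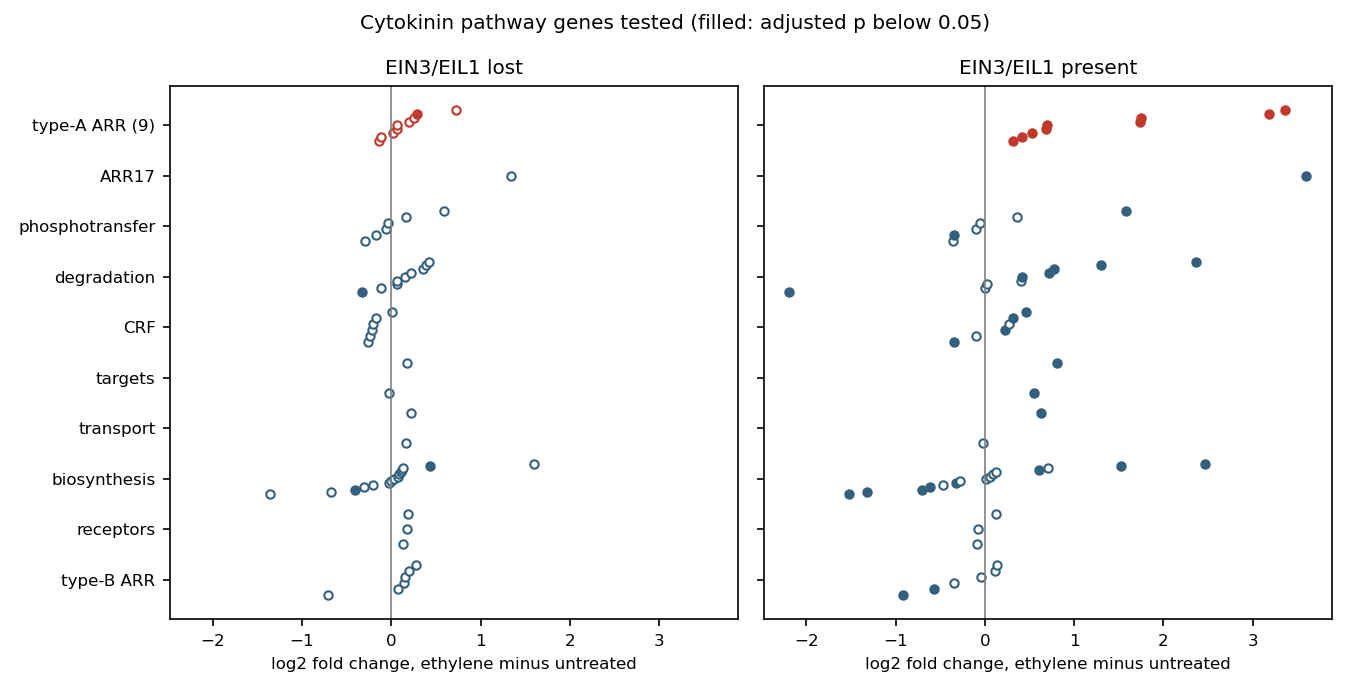
Log2 fold change of ethylene over untreated (x axis) for each cytokinin pathway gene tested, by class (y axis), with EIN3/EIL1 lost (left) and present (right); the 9 type-A genes are red, the others blue, and filled points have an adjusted p below 0.05. On the right the 9 red points are filled and above 0, while phosphotransfer, degradation, CRF and biosynthesis genes have filled points on both sides of 0 and the 3 receptors have none.

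ARR17 (AT3G56380), a type-A gene close to ARR16 and outside the 9, was singled out after its values were seen. It rose by 3.60 ± 0.28 with EIN3/EIL1 present (adjusted p = 1.3e-08) at 2.49 and 1.86 CPM in rhd6rsl1 and 6.54 and 7.06 CPM in Col-0 with ethylene. Untreated rhd6rsl1 held 4 and 2 reads of it and untreated Col-0 44 and 57. Without EIN3/EIL1 the libraries held 4 to 41 reads with ethylene and 0 to 18 untreated. The change of ARR17 there was 1.34 and was not called. Per kilobase of spliced transcript, ein3eil1 held 1.75 and 1.83 CPM with ethylene against 0.689 and 0.642 CPM untreated. In ein3eil1rhd6rsl1 these were 0.188 and 0.191 CPM against 0 and 0.152 CPM. The difference without EIN3/EIL1 was -2.26 ± 0.64 (adjusted p = 0.015).

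Coding sequences of the family in RefSeq were closest for ARR5 and ARR6 (79.2% identity), ARR16 and ARR17 (78.6%), ARR8 and ARR9 (77.5%) and ARR7 and ARR15 (70.6%). The longest stretch of identical bases between any 2 of the 10 transcripts was 41, and the reads were 100 bases long. The sources do not say how reads that match several genes were counted. Of the pair ARR7 and ARR15, ARR7 was called higher in both untreated comparisons of EIN3/EIL1 loss, and ARR15 in neither, at 0.89 ± 0.36 and -0.39 ± 0.37 (adjusted p = 0.2 and 0.61). Whether the 2 genes differ in this was not tested.

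The loci whose levels followed the family most closely were sought among 15537 loci outside it whose average level reached 5 CPM. Over the 16 libraries, which share their 8 groups, the mean profile of the 9 correlated most with the auxin-response gene IAA1 (AT4G14560, Pearson r = 0.975), AT5G11420 (0.972), the ethylene synthesis gene ACO1 (AT2G19590, 0.972), AT5G38200 (0.971) and AT4G27280 (0.964). ARR3 was followed most closely by the NAC factor gene ATAF2 (AT5G08790, r = 0.989) and the ethylene receptor gene ERS2 (AT1G04310, 0.987), and ARR9 by AT1G35190 (0.988). ARR15 shared AT5G11420 and ACO1 with the family mean, at 0.967 and 0.965. That mean used log2 CPM centred but not scaled to equal spread, so ARR15, with its wide range, weighs heavily in it. The best match of ARR16 was AT3G55720 (0.945), that of ARR7 AT3G02510 (0.922), that of ARR5 AT1G70780 (0.906, a locus that overlaps AT1G70782) and that of ARR4 AT2G29500 (0.884).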

How the data were processed

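Per the submitters' processing notes, alignment used BWA 0.7.7 and the TAIR10 build. Per the file headers, each deposited table lists a read count, a length and an RPKM value for 39640 transcript models. The sources do not give the counting tool, the strand setting or the handling of shared reads. Counts of models were summed to 33518 loci, and each of the 9 members had 1 model. The authors' deposited RPKM values served only to order levels between genes.

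Counts were filtered with filterByExpr, TMM-scaled and fitted in edgeR 4.0.16 (R 4.3.3) by quasi-likelihood with 1 mean for each of 8 groups, leaving 8 residual degrees of freedom, with Benjamini-Hochberg adjustment over 22304 loci. Adjusted p-values are from that fit, unless DESeq2 1.42.0 is named. Standard errors were derived from the F statistic and the fold change. CPM values use the TMM library sizes, and library totals were 33.0 to 45.0 M reads. The 24 alternatives were 8 other settings and the omission of each of the 16 libraries in turn. The setting that fits only the groups compared repeats the main fit where a contrast uses all 8 groups. This holds for the difference of both averages and for the loss of RHD6/RSL1. In simulated data the fit recovered 79.1% of 1.5-fold, 95.5% of 2-fold and 100% of 4-fold changes for ethylene with EIN3/EIL1 present, and 52.2, 83.6 and 98.5% for the difference between EIN3/EIL1 lost and present, among 21937 loci. Loci with no planted change were called 7 times in the first contrast, 15 times in the second and 0 times with EIN3/EIL1 lost, where nothing was planted. The simulation held 67 changes of 1.5-fold, 67 of 2-fold and 66 of 4-fold, rises and falls, and no file set effect. In the real data with EIN3/EIL1 present 9210 loci were called, so these rates may not hold there. Members, lists and tests were chosen with earlier results of these data known. The text names all members, the called pathway genes that averaged 5 CPM or more, the receptors, 3 genes that check the treatment, the targeted genes and, for likeness, the loci of highest Pearson correlation on log2 CPM. Sequences, lengths and identities come from RefSeq TAIR10.1. Figures were drawn with matplotlib 3.10.9.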

Additional observations from a re-analysis of the deposited data

Results flagged for a closer look

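The results listed here share 1 reason: the ethylene response differed by the presence of EIN3/EIL1, by the test of the difference itself in edgeR. In the difference of both averages (EIN3/EIL1 lost minus present) the log2 values were -1.68 for ARR3, -0.36 for ARR4, -0.84 for ARR5, -1.87 for ARR7, -0.49 for ARR9, -3.11 for ARR15 and -2.44 for ARR16. For ein3eil1 minus Col-0 they were -1.75 for ARR3, -0.54 for ARR4, -0.93 for ARR5, -2.01 for ARR7, -0.62 for ARR9 and -3.56 for ARR15. For ein3eil1rhd6rsl1 minus rhd6rsl1 they were -1.61 for ARR3, -0.76 for ARR5, -1.73 for ARR7, -0.37 for ARR9, -2.65 for ARR15 and -3.65 for ARR16. The 3 sets share libraries and are not independent of each other.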

How the results depend on the processing

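Of the 68 calls of members in 14 contrasts, all were kept with RLE scaling, plain library totals, no filter on low counts and DESeq2. Leaving out both libraries high in photosynthesis transcripts lost 1, using the first transcript model lost 2 and fitting only the groups compared lost 2. Scaling moved the median of all loci by at most 0.057 on the log2 scale. The number of members called moved in more cases than are listed here. Only the moves largest relative to the count follow, also for leaving out 1 library. A smaller one arose in the difference of both averages, where the main fit did not call ARR6 and ARR8. Without a filter edgeR called both there (adjusted p = 0.028 and 0.034), and DESeq2 called ARR8 (adjusted p = 0.043). With EIN3/EIL1 lost the number called was 2 by DESeq2, against 1, as DESeq2 called ARR9 (adjusted p = 0.036) beside ARR8. For ethylene in ein3eil1rhd6rsl1 it was 3 without a filter, against 1. For untreated ein3eil1 minus Col-0 it was 4 without a filter, in a fit of the groups compared and by DESeq2, against 2. The causes were not tested. Leaving out 1 library gave 0 to 1 call with EIN3/EIL1 lost, 1 to 2 in ein3eil1rhd6rsl1, 1 to 3 for untreated ein3eil1 minus Col-0, 5 to 8 for the same with ethylene, and 1 to 5 for loss of RHD6/RSL1. It turned the sign of the median in 3 contrasts, whose ranges were -0.08 to 0.13, -0.25 to 0.20 and -0.05 to 0.01: to -0.07 without ein3eil1rhd6rsl1 untreated replicate 1 and -0.08 without ethylene replicate 2 for ethylene in ein3eil1rhd6rsl1, to 0.20 without rhd6rsl1 untreated replicate 1 and 0.10 without ein3eil1rhd6rsl1 untreated replicate 1 for ein3eil1rhd6rsl1 minus rhd6rsl1 untreated, and to 0.01 without rhd6rsl1 ethylene replicate 2 for loss of RHD6/RSL1.

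The labels do not say what replicates of the same number share. Over 28 pairs of groups the correlations of their deviations from group means were -0.08 to 0.21 (median -0.009), with 2 above 0.1. These low values cannot show whether the samples were grown or prepared in pairs. With replicate number as a block the counts of calls stayed within 1.5 times, and 1 call was lost, that of ARR9 for ein3eil1rhd6rsl1 minus rhd6rsl1 (adjusted p = 0.06). With 2 libraries a group, single libraries decided several calls near the threshold. Each call was refitted without each of the 16 libraries in turn, and 59 of these 1088 pairs of call and omitted library lost the call. Many pairs omit a library outside the contrast, so this is no rate of dependence on the libraries compared. Low read numbers limit ARR16 and ARR15 in untreated libraries and in ethylene libraries without EIN3/EIL1 (down to 0.29 and 0.435 CPM). The shift of ARR16 with loss of RHD6/RSL1 draws on such libraries too. Reads are not independent molecules, so depth covers counting error only.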
